A study of Homo sapiens with 4 samples.

Results

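The genes of cholesterol and fatty acid synthesis were examined in Huh7, an established human hepatocellular carcinoma line, after flow cytometry had separated its CD133+ from its CD133- cells. CD133, the product of PROM1, is a membrane protein by which liver cancer cells with tumour-initiating capacity are commonly enriched. The members were chosen by name: every probe set that the platform annotation pairs with exactly 1 gene symbol was taken when that symbol was among 45 listed lipid synthesis genes. This gave 96 probe sets of 41 genes, out of 19775 genes named on the array. FADS1, CYP51A1 and ELOVL1 lie on probe sets that the annotation gives several symbols, and FDFT1 was not analysed here. Of the 41 genes, 17 are enzymes of sterol synthesis, 6 control the pathway or carry sterol, and 18 belong to fatty acid and triglyceride synthesis.

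The compared groups were 1 array of sorted CD133+ Huh7 cells and 1 array of sorted CD133- Huh7 cells. Both populations come from the same line, and the labels name no treatment, culture time or repeated sort. With 1 array per population there was no replicate error and no test, so every difference below describes these arrays. Unless MAS5 is named, values are RMA values, which are on the log2 scale, and differences are CD133+ minus CD133-. Where a gene has several probe sets, the brightest by mean value stands for it, and the gene was called detected when its brighter value exceeded 4.86, the middle of all probe sets ranked by their brighter value. Of the 41 genes 40 were detected. THRSP, a regulator of lipogenesis in liver and fat, lay below this floor with 4.03 in CD133+ and 3.98 in CD133- cells.

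Cholesterol and fatty acids are both built from cytosolic acetyl-CoA. The sterol branch runs through mevalonate, isoprenoids, squalene and lanosterol, and the fatty acid branch runs through malonyl-CoA to palmitate, which is then elongated, desaturated and esterified into triglycerides. Transcription of both branches is driven by the SREBP factors, which are made as membrane precursors: SCAP escorts them out of the endoplasmic reticulum when sterols are low, and the INSIG proteins hold them there when sterols are high. Liver is a main site of both pathways, and lipid synthesis remains active in many hepatocellular carcinomas.

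PROM1 itself had 10.49 in CD133+ and 5.33 in CD133- cells, which matched the labels of the sort. All 11 listed hepatocyte markers were detected, with summed MAS5 signals of 418876 and 408856 on the CD133+ and CD133- arrays. Of markers of other cell types, 4 of 6 listed blood markers were detected (summed signals 13116 and 13873, nearly all from LYZ, with the leukocyte marker PTPRC below the floor). Endothelial markers were detected for 2 of 4 (summed 337 and 331) and stromal markers for 2 of 5 (summed 701 and 763), and adipocyte markers for 0 of 5 (summed 64.4 and 36.8). The part of other cells in the results below was not tested. In RNA from a whole population, fewer cells that express a gene and less of its RNA per cell cannot be told apart.

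Most lipid synthesis genes had slightly lower values in CD133+ cells, and a single gene, the desaturase gene SCD5, was much higher. Of the 40 detected members, 34 were lower and 6 higher. Over all 12899 detected genes, 51.1% were lower and 45.6% higher. The members' median difference was -0.15, from -0.48 for MVD to at least 1.34 for SCD5, whose CD133- value lay below the floor, beside a median of -0.01 over all detected genes. The median member's difference was close in size to the within-gene SD of probe sets, which was 0.17 from 16955 pairs of probe sets above the floor. Beyond that SD, 19 members were lower and 2 higher, and the other 19 lay within it. The lower side holds 47.5% of the members and 18.9% of all detected genes. Of all detected genes, 81.2% had a difference at or below 0.17.

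Few members differed by more than a small amount. With a limit of 0.32 on the log2 scale, 5 members were lower: MVD, SREBF1, LPIN1, MLXIPL and FASN. They are 12.5% of the members, beside 5.57% of all detected genes. At the same limit 1 member, SCD5, was higher, which is 2.5% of the members beside 8.69% of all detected genes. At least 2-fold, 0 members were lower, beside 0.116% of all detected genes, and 1 member, SCD5, was higher, beside 1.65%.

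**Figure D1:**
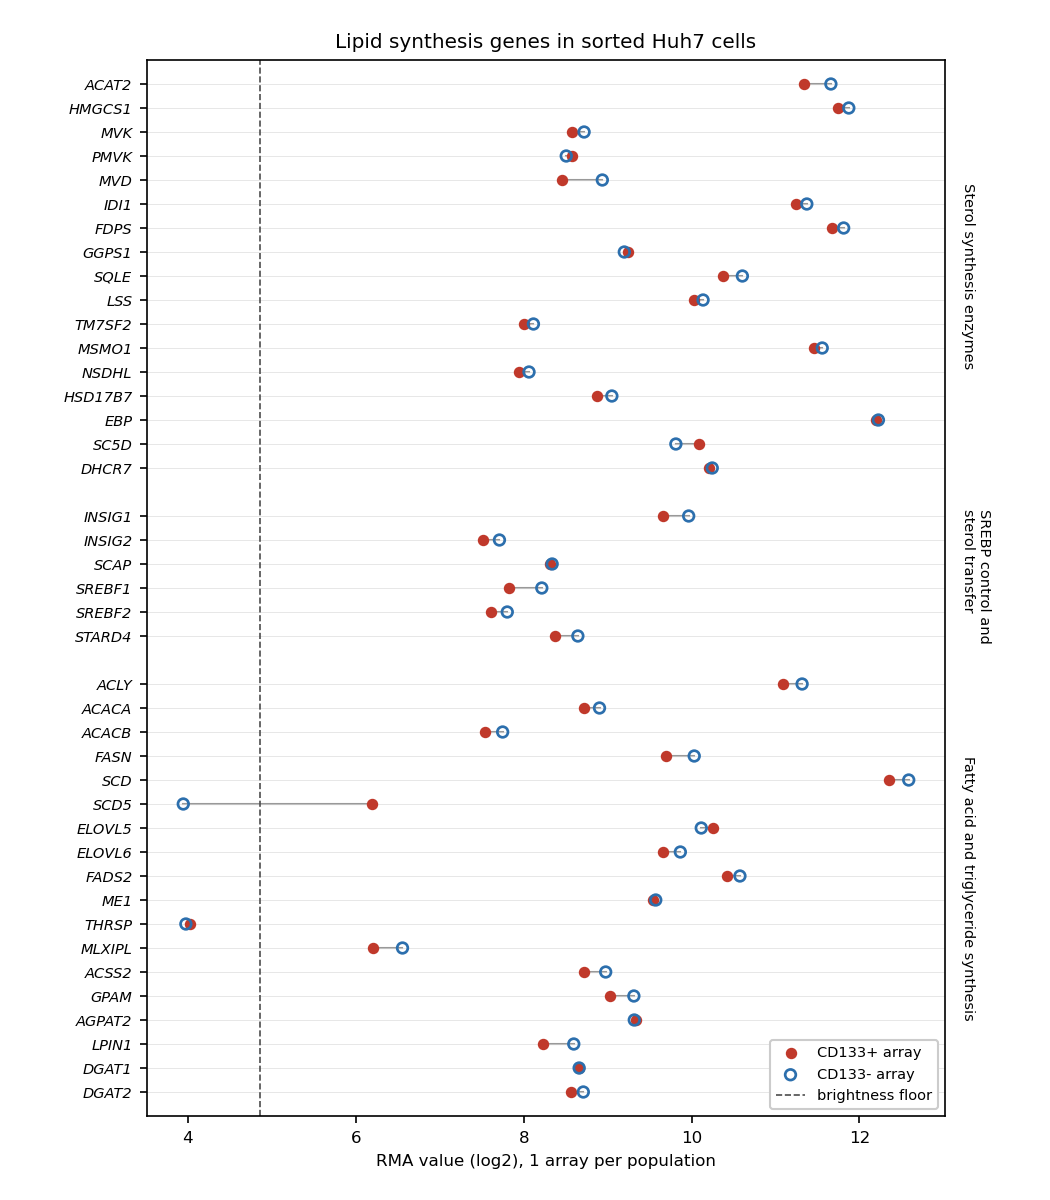
RMA value (log2, horizontal axis) of each of the 41 genes on the CD133+ array (filled circles) and the CD133- array (open circles), with the brightness floor of 4.86 as a dashed line. In most rows the filled circle lies slightly to the left, as for MVD at 8.46 against 8.94, while SCD5 stands apart with 6.19 against 3.94; levels of different genes cannot be set against each other on an array.

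The promoters of the genes on which these results turn are shown first, since SREBP factors bind DNA together with NF-Y and Sp1. SCD5 and SCD are the stearoyl-CoA desaturase genes that differed in opposite directions, MVD had the lowest difference, INSIG1 is the feedback gene of the pathway and SREBF2 was the only member with the sterol element searched for. The 250 bases before each gene's annotated start are given 5′ to 3′ from RefSeq on build GRCh38.p14, for SCD5 at chr4:82798797-82799046, minus strand, for SCD at chr10:100346983-100347232, plus strand, for MVD at chr16:88663092-88663341, minus strand, for INSIG1 at chr7:155297628-155297877, plus strand, and for SREBF2 at chr22:41832855-41833104, plus strand. Capitals mark matches, on either strand, to the sterol regulatory element TCACNCCAC, the NF-Y box CCAAT, the E box CACGTG and the GC box GGGCGG bound by Sp1.
SCD5: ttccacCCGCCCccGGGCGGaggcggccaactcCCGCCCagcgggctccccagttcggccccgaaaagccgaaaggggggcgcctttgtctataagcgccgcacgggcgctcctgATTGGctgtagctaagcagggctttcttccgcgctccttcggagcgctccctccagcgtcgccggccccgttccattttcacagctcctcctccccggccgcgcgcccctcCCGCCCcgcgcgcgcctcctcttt
SCD: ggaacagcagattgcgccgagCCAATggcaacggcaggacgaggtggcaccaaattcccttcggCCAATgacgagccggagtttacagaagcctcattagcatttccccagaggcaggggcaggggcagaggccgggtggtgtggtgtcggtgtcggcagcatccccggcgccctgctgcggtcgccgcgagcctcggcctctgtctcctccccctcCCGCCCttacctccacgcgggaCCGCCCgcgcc
MVD: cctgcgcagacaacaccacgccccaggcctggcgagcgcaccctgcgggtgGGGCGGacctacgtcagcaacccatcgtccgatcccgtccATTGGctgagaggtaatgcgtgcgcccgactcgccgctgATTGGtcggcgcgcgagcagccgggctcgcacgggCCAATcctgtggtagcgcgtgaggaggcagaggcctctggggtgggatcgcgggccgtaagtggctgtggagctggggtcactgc
INSIG1: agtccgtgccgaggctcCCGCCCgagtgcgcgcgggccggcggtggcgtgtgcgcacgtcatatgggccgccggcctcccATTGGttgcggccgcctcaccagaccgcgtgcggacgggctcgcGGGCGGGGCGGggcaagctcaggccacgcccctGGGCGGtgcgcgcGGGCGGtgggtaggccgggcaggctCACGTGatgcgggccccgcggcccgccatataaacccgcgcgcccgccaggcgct
SREBF2: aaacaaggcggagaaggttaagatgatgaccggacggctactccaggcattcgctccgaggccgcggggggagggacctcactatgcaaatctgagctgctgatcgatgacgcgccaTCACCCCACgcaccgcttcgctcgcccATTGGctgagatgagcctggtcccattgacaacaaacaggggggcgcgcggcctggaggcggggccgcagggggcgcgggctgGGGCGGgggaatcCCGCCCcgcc
In the SCD5 window the NF-Y box begins 135 bases before the start, and in the SCD window such boxes begin 186 and 229 bases before it. MVD holds 3 NF-Y boxes, at 85, 120 and 159 bases. INSIG1 has 1 NF-Y box, an E box 55 bases before the start and 5 GC boxes, of which a neighbouring pair overlaps. In SREBF2 the sterol element begins 133 bases and the NF-Y box 106 bases before the start.

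The promoter table held 39 of the 45 genes, 12 of them with several annotated starts, and a gene was counted when any of its windows of 300 bases (250 before to 50 after the start) held the motif. The NF-Y box was found in 14 of 16 sterol synthesis enzymes, 3 of 6 control and transfer genes and 11 of 17 fatty acid and triglyceride genes. Over all genes of the table it was found in 39.7%, and over detected genes in 42.7%. The GC box was found in 36 of 39 members, beside 48.3% of all and 74.9% of detected genes, and the E box in 5 of 39 (12.8%), beside 12.6%. The sterol element in this exact form was found in 1 of 39 members, beside 1.46% of detected genes. Counted over single windows in place of genes, the NF-Y box stood in 34.6%, the E box in 7.26% and the sterol element in 1.13% of all 35116 promoters. These matches describe the sequence only, and a window without a match says nothing about the factor.

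The sterol synthesis enzymes were lower as a group by a small amount. Of 17 detected enzymes 14 were lower (82.4%, beside 51.1% of all detected genes) and 3 higher. The median difference was -0.12, with middle quartiles from -0.14 to -0.04, which is smaller than the within-gene SD of 0.17. By MAS5 11 of 17 were lower (64.7%, beside 49.7%). MVD was the only enzyme lower by more than the limit of 0.32, and 1 of 17 (5.88%) is close to the 5.57% of all detected genes.

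Along the mevalonate steps the largest difference was at MVD, which decarboxylates mevalonate diphosphate to the isoprenoid building block. It had 8.46 in CD133+ and 8.94 in CD133- cells, which is 1.39-fold lower, and its MAS5 signals were 1333 and 2192. ACAT2, which joins acetyl-CoA units at the entry of the pathway, had 11.34 in CD133+ and 11.66 in CD133- cells, which fell just short of that limit. Both genes are represented by a single probe set. HMGCS1, the HMG-CoA synthase, differed by -0.13 on its brighter probe set (11.75 in CD133+, 11.87 in CD133-) and by 0.08 on the other, so its direction depended on the probe set. MVK, which phosphorylates mevalonate, differed by -0.14, and all 4 of its probe sets were lower, from -0.26 to -0.12. PMVK, the next kinase, had 8.57 in CD133+ and 8.51 in CD133- cells.

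The enzymes that follow build the longer isoprenoids. IDI1, the isomerase of the building block, differed by -0.12, with all 3 probe sets above the floor lower. FDPS, the farnesyl diphosphate synthase, had 11.67 in CD133+ and 11.81 in CD133- cells, a difference of -0.14. GGPS1, which makes the geranylgeranyl chain used to anchor proteins in membranes rather than sterol, had 9.25 in CD133+ and 9.20 in CD133- cells, and its dimmer probe set differed by 0.09. The 8 enzymes of the mevalonate and isoprenoid steps included 6 lower (75%, beside 51.1% of all detected genes) and 2 higher, PMVK and GGPS1.

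Among the enzymes from squalene onward 8 of 9 were lower by RMA, beside 51.1% of all detected genes, with a median of -0.10. By MAS5 5 of 9 were lower, close to the 49.7% of all detected genes, with a median of -0.04. SQLE, the squalene epoxidase, a point of flux control, had 10.37 in CD133+ and 10.61 in CD133- cells, 1.18-fold lower, and its 4 probe sets were all lower, from -0.42 to -0.08. LSS, which closes the rings to lanosterol, differed by -0.10, and its dimmer probe sets by -0.43 and -0.18, whereas its MAS5 signals were 4920 in CD133+ and 4686 in CD133- cells. The enzymes that trim lanosterol differed little: TM7SF2 (a ring reductase) by -0.11, MSMO1 (a methyl oxidase) by -0.10, NSDHL (a decarboxylating dehydrogenase) by -0.12 and HSD17B7 (a keto reductase) by -0.18 (0.02 by MAS5). For NSDHL the algorithms went opposite ways, with a MAS5 difference of 0.35 (1164 in CD133+, 914 in CD133-).

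The last steps held the single higher enzyme of this stretch. EBP, the sterol isomerase, differed by -0.03 on its brightest probe set and was lower on all 4, down to -0.29. SC5D, which introduces a ring double bond, had 10.08 in CD133+ and 9.81 in CD133- cells, 1.21-fold higher, with MAS5 signals of 5248 and 4272. Its other probe set, close to the floor, had 5.05 in CD133+ and 5.12 in CD133- cells. DHCR7, which acts after SC5D and completes cholesterol, had 10.21 in CD133+ and 10.25 in CD133- cells, and its probe sets differed by -0.04 and -0.03.

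All 6 genes that control the SREBP factors or carry sterol were lower in CD133+ cells by both algorithms, on their brightest probe set. Over all detected genes, 39.0% were lower by both. The median difference was -0.23 by RMA and -0.22 by MAS5. SREBF1, whose products favour fatty acid genes, had 7.83 in CD133+ and 8.22 in CD133- cells, 1.31-fold lower. Its dimmer probe set differed by -0.36 by RMA and by 0.13 by MAS5. SREBF2, whose product favours cholesterol genes, had 7.61 in CD133+ and 7.80 in CD133- cells, and its 3 probe sets differed by -0.19, -0.15 and 0.01. By MAS5 the same probe sets differed by -0.12, 0.10 and 0.58, so the direction depended on the probe set. The SREBF1 difference was thus about 1.31-fold beside 1.14-fold for SREBF2.

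INSIG1, the feedback anchor that is itself an SREBP target, had 9.66 in CD133+ and 9.97 in CD133- cells, 1.23-fold lower, and its 3 probe sets differed by -0.30, -0.38 and -0.19. INSIG2, a related anchor, had 7.52 in CD133+ and 7.71 in CD133- cells, a difference of -0.20. SCAP, the escort protein, was nearly level with 8.32 in CD133+ and 8.34 in CD133- cells. STARD4, a cytosolic sterol carrier and SREBP target, had 8.38 in CD133+ and 8.65 in CD133- cells, 1.20-fold lower, with MAS5 signals of 1617 and 2132.

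**Figure D2:**
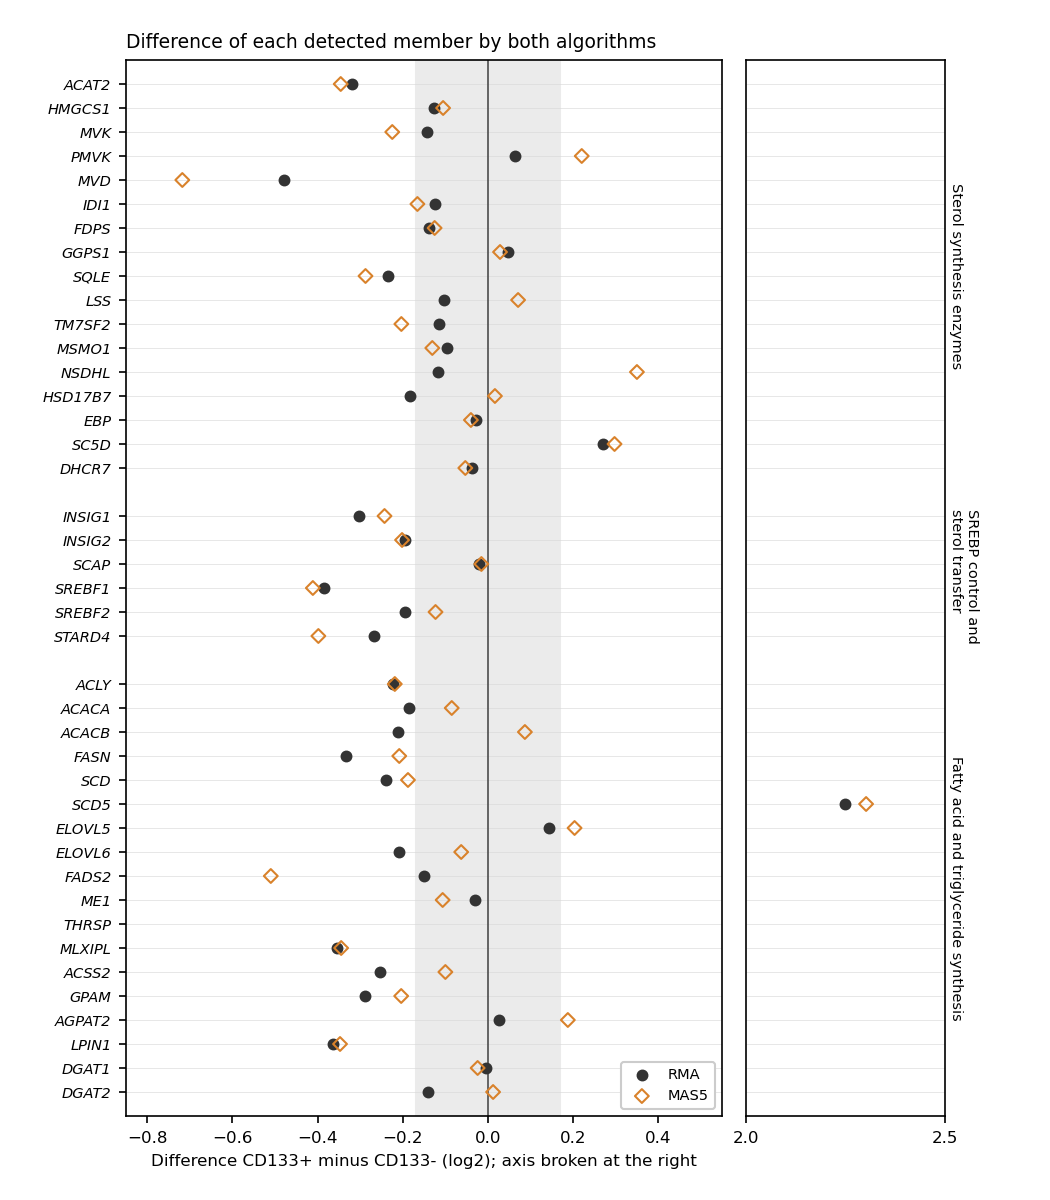
Difference CD133+ minus CD133- (log2, horizontal axis, broken at the right) of the 40 detected members by RMA (filled circles) and MAS5 (open diamonds); the grey band is the within-gene SD of 0.17 between probe sets, and THRSP, below the floor, has no point. All 6 control and transfer genes lie left of 0 by both algorithms, and SCD5 lies alone at the right; its points are differences of the values as measured, and against the floors they are at least 1.34 by RMA and 2.06 by MAS5.

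In fatty acid and triglyceride synthesis 14 of 17 detected genes were lower (82.4%, beside 51.1% of all detected genes) and 3 were higher. The median difference was -0.21 by RMA and -0.10 by MAS5, where 12 of 17 were lower (70.6%, beside 49.7%). Past the limit of 0.32, LPIN1, MLXIPL and FASN were lower (17.6% of the group, beside 5.57% of all detected genes) and SCD5 was higher (5.88%, beside 8.69%).

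All 6 genes that supply acetyl-CoA and NADPH and build palmitate were lower by RMA, with a median of -0.22. By MAS5 5 of 6 were lower and the median was -0.10. Over all detected genes 51.1% were lower by RMA and 49.7% by MAS5. ACLY, which cleaves citrate to cytosolic acetyl-CoA, had 11.09 in CD133+ and 11.32 in CD133- cells, and its 3 probe sets were all lower, by 0.22, 0.15 and 0.15 (log2). ACSS2, which makes acetyl-CoA from acetate, had 8.72 in CD133+ and 8.98 in CD133- cells. FASN, the fatty acid synthase, had 9.70 in CD133+ and 10.03 in CD133- cells, 1.26-fold lower, and its other, dim probe set differed by -0.09. The acetyl-CoA carboxylases that make malonyl-CoA differed by similar amounts: ACACA, the lipogenic form, by -0.19 and ACACB, whose malonyl-CoA restrains mitochondrial oxidation, by -0.21. All 4 ACACB probe sets above the floor were lower by RMA, from -0.24 to -0.15. By MAS5 the brightest differed by 0.09 and the others by 0.17, -0.50 and -0.52. ME1, the malic enzyme that yields NADPH, had 9.54 in CD133+ and 9.57 in CD133- cells.

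The desaturases and elongases went in different directions. SCD, the main stearoyl-CoA desaturase of liver, had 12.35 in CD133+ and 12.59 in CD133- cells, 1.18-fold lower, and its 4 probe sets were all lower, from -0.24 to -0.09. SCD5, a primate-expressed desaturase that makes the same kind of monounsaturated fatty acid and is best known from brain and pancreas, had 6.19 in CD133+ and 3.94 in CD133- cells. Its CD133- value lay below the floor, so it was at least 2.52-fold higher. Its MAS5 signals were 384 in CD133+ and 77.8 in CD133- cells, and with the MAS5 floor of 91.8 this is at least 4.18-fold.

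The SCD5 difference rested on 1 of its 4 probe sets. A probe set that just passed the floor had 4.88 in CD133+ and 4.99 in CD133- cells. Of those below the floor, 1 had 3.84 in CD133+ and 3.77 in CD133- cells, and the other had 3.23 in both. Whether the probe sets report different transcripts of SCD5 was not tested.

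ELOVL5, which elongates polyunsaturated chains, had 10.26 in CD133+ and 10.12 in CD133- cells, and its other probe set above the floor was higher by 0.04. ELOVL6, which elongates palmitate to stearate, the substrate of SCD, had 9.66 in CD133+ and 9.87 in CD133- cells. Its probe sets differed by -0.21, -0.31 and -0.40, so the brightest had the smallest difference. FADS2, the first desaturase of polyunsaturated synthesis, differed by -0.15 by RMA and by -0.51 by MAS5, where its signals were 6112 in CD133+ and 8705 in CD133- cells. MLXIPL, which encodes the glucose-responsive lipogenic factor ChREBP, had 6.20 in CD133+ and 6.56 in CD133- cells, 1.28-fold lower, on a single probe set.

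Of the 5 genes of triglyceride assembly 4 were lower by RMA, beside 51.1% of all detected genes, with a median of -0.14. By MAS5 3 of 5 were lower, beside 49.7%, with a median of -0.02. GPAM, which starts the pathway by acylating glycerol phosphate at mitochondria, had 9.02 in CD133+ and 9.31 in CD133- cells, and its other probe set differed by -0.33. AGPAT2, which adds the next acyl chain, had 9.34 in CD133+ and 9.32 in CD133- cells. LPIN1, the phosphatidate phosphatase, had 8.23 in CD133+ and 8.60 in CD133- cells, 1.29-fold lower, and its other probe sets differed by -0.21 and -0.18. Of the acyltransferases of the final step, DGAT1 was nearly level at -0.01, and DGAT2 differed by -0.14 by RMA and 0.01 by MAS5.

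Some families went the same way by RMA. INSIG1 and INSIG2 differed by -0.30 and -0.20, SREBF1 and SREBF2 by -0.39 and -0.19, and ACACA and ACACB by -0.19 and -0.21. The stearoyl-CoA desaturases SCD (-0.24) and SCD5 (at least 1.34) went opposite ways, as did the elongases ELOVL6 (-0.21) and ELOVL5 (0.14). By MAS5 the brightest probe sets of ACACA and ACACB differed by -0.09 and 0.09, but those of ACACB above the floor ranged from -0.52 to 0.17. DGAT1 and DGAT2, which share a reaction but not a family, differed by -0.01 and -0.14.

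**Figure D3:**
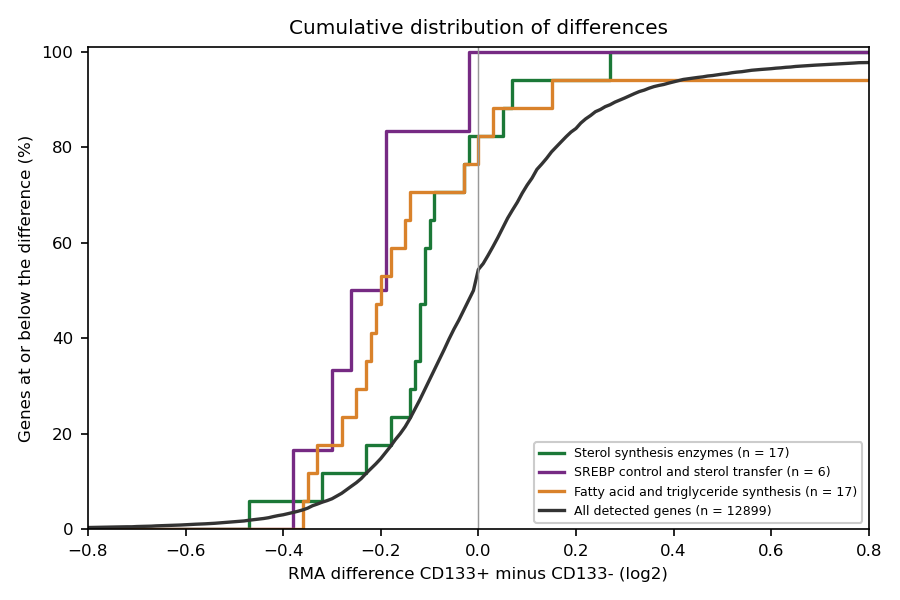
Share of genes (percent, vertical axis) whose RMA difference CD133+ minus CD133- lies at or below the value on the horizontal axis (log2), for the 3 groups of members and for all 12899 detected genes. Around their middle the curves of the members lie left of the curve of all genes, with medians of -0.12, -0.23 and -0.21 beside -0.01, and SCD5 lies beyond the right edge.

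The direction was repeated between probe sets of the same gene for most members. Of the 84 member probe sets above the floor, 73 were lower, a count that a gene with several enters more than once. The share over all probe sets above the floor is not given here. Of 27 members with at least 2 such probe sets, 20 were lower on every probe set (74.1%), beside 32.3% of the 6042 genes of the array with as many. GGPS1, ELOVL5 and AGPAT2 were higher on every probe set, and HMGCS1, SC5D, SREBF2 and SCD5 were mixed. Probe sets of 1 gene on 1 array share the RNA sample and the hybridization, so they are not replicates of the comparison.

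**Figure D4:**
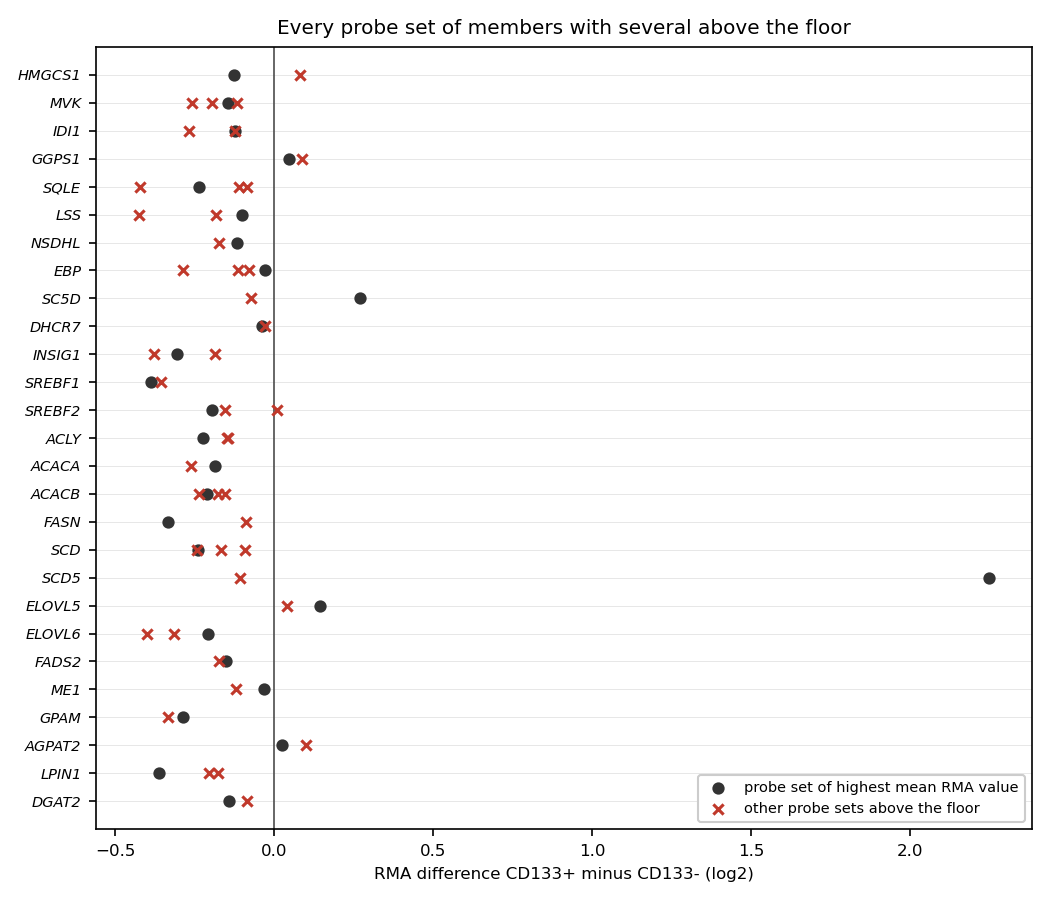
RMA difference CD133+ minus CD133- (log2, horizontal axis) of every probe set above the floor for the 27 members with at least 2, with the brightest as a circle and the others as crosses. In 20 rows all marks lie left of 0, and for SCD5 the circle, drawn at the difference as measured and known only as at least 1.34, and the cross at -0.11 disagree.

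By MAS5 the lean to lower values was weaker. Of the 40 members 29 were lower by both algorithms (72.5%), beside 39.0% of all detected genes, and 6 were higher by both. LSS, NSDHL, HSD17B7, ACACB and DGAT2 were lower by RMA and higher by MAS5. By MAS5 alone 29 members (72.5%) were lower, beside 49.7% of all detected genes, and 11 were higher, beside 50.3%, with a median of -0.12 beside 0.00. Past the limit of 0.32 by MAS5, 7 members were lower (17.5%), close to the 15.1% of all detected genes. At that limit 2 members were higher (5%), beside 20.2%. By RMA the lower side had been 12.5% of the members beside 5.57%. Both algorithms were taken to summarize the same arrays, so they are not treated as independent of each other. Most members are bright, and bright genes as a whole leaned lower: above the upper quartile of 6.79, 56.0% of 7999 genes were lower with a median of -0.03, beside 33 of the 38 members there with a median of -0.15.

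Genes that act around these pathways did not share 1 direction. SREBP processing and sterol-regulated degradation genes were lower for 8 of 11 detected (median -0.13). Of them 0 passed the limit of 0.32 by RMA, beside 5.57% of all detected genes lower and 8.69% higher. Sterol export, storage and trafficking genes were lower for 10 of 13 (median -0.13), but higher for 8 of 13 by MAS5. In this list ABCG5, a subunit of the sterol exporter of liver and gut, had 5.93 in CD133+ and 6.50 in CD133- cells, and NPC2, the lysosomal cholesterol carrier, had 11.29 in CD133+ and 10.86 in CD133- cells. Genes of NADPH and acetyl group supply were lower for 6 of 11 (54.5%, median -0.02). Those of other isoprenoid products were lower for 6 of 9 (66.7%, median -0.14). By MAS5, 4 of 11 and 6 of 9 of these were lower, and 7 of 11 of the SREBP processing genes. Over all detected genes 51.1% were lower by RMA and 49.7% by MAS5.

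Other genes of acyl chain activation, elongation and triglyceride storage leaned the other way. Of 19 detected, 12 were higher (63.2%, beside 45.6% of all detected genes) and 7 lower, with a median of 0.06. Past the limit of 0.32, 6 were higher (31.6%, beside 8.69%) and 1 lower (5.26%, beside 5.57%). By MAS5 the lean was weaker, with 11 of 19 higher (57.9%, beside 50.3%). Past the same limit by MAS5, 6 were higher (31.6%, beside 20.2%) and 3 lower (15.8%, beside 15.1%). ACSL5, an acyl-CoA synthetase that activates fatty acids in gut and liver, had 7.06 in CD133+ and 5.62 in CD133- cells, 2.72-fold higher. Its dimmer probe set differed by 1.38. ELOVL7, an elongase of saturated very long chains, had 7.79 in CD133+ and 6.62 in CD133- cells, 2.25-fold higher. The lipid droplet gene CIDEC was 1.71-fold higher with 7.59 in CD133+ and 6.81 in CD133- cells, and the synthetase gene ACSL1 1.55-fold higher. Neither ELOVL7 nor CIDEC had another probe set above the floor. ACSL4, which prefers arachidonate, had 7.98 in CD133+ and 8.39 in CD133- cells, 1.33-fold lower. By RMA, SCD5, ELOVL7 and ACSL5 were the genes of at least 2-fold difference among the members and these lists. By MAS5 the triglyceride gene MOGAT2 was lower, with signals of 13.4 in CD133+ and 77.0 in CD133- cells, but both lay below the MAS5 floor of 91.8.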

How the data were processed

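Total RNA of sorted CD133+ and CD133- Huh7 cells was biotin-labelled and hybridized, per the labels' protocols, to 1 array per population. For each population the deposited table holds a column of MAS5 signal intensity on a linear scale and a column of RMA values on the log2 scale. Both columns of a population were taken as the same array, so as 1 array per population. The labels do not state this outright. MAS5, RMA and GCOS stand in the submitters' processing notes with no version. The trimmed mean of the deposited MAS5 intensity was 500.1 on both arrays. RMA includes quantile normalization, which hides any shift of all genes together. The genome build, and the set of arrays that RMA normalized jointly, are not stated in the labels.

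Of 54675 probe sets, 41097 had exactly 1 symbol, 1801 several and 11777 none listed. For 41043 of those with exactly 1, the symbol was taken through the Entrez number from the RefSeq genes, whether or not it changed. Differences, medians and counts were computed with Python 3.11.15 and pandas 2.3.3 and checked on simulated data. The detection floor is a rule of brightness, not a detection call, and where the dimmer value lies below it a fold is the brighter value over the floor. No test was possible with 1 array per population, and the number of arrays limits every value. The members, lists and floor were chosen with earlier results of these data known. Values of both arrays are given for members past a log2 limit of 0.32 and the 3 highest and 3 lowest of each group, and for others where their role is described. The genes named from the lists around the pathways, and the promoters shown, were chosen after their values were seen. Cell types were checked with marker lists.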

Additional observations from a re-analysis of the deposited data

How the results depend on the processing

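Each group was recomputed with MAS5 in place of RMA, without the brightness floor, with the mean over probe sets above the floor, without shared probe sets, with the floor at the upper quartile, and centred on the median of detected genes. The medians of the 3 groups stayed negative in all 6 alternatives. They ranged from -0.14 to -0.11 for sterol enzymes, from -0.23 to -0.22 for control and transfer genes, and from -0.21 to -0.10 for fatty acid and triglyceride genes, the last by MAS5. The share of sterol enzymes lower was 64.7% by MAS5 against 82.4% by RMA, and the share of all members lower ranged from 72.5% by MAS5 to 86.8% with the higher floor. Counts at the log2 limit of 0.32 are small and did move. By MAS5, 2 sterol enzymes were lower (11.8%) and 1 higher (5.88%), and 2 control and transfer genes were lower (33.3%). Over all detected genes the MAS5 shares were 15.1% lower and 20.2% higher, so the sterol enzymes had no excess of lower genes there. The count of lower fatty acid genes was 3 by both algorithms, with FADS2 in place of FASN by MAS5. This is 17.6% of the group, beside 5.57% of all detected genes by RMA and 15.1% by MAS5. By MAS5 the group's share was therefore close to that of all genes. Without shared probe sets only 10 of 17 genes remained in each enzyme group, MVD not among them. Of these, 0 sterol enzymes and 1 fatty acid gene were lower by that limit, beside 6.62% of all detected genes. With the mean over probe sets, 1 fatty acid gene was lower by that limit, beside 4.83% of all detected genes. With the higher floor SCD5 dropped out, which left 0 fatty acid genes higher, beside 7.86% of all genes above that floor. PROM1 differed by 5.16 by RMA and 4.86 by MAS5. The cause of these shifts was not tested. No paired analysis was possible because each population has a single array. Dim genes such as SCD5 in CD133- cells are measured only as bounds.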
